A study of Saccharomyces cerevisiae with 6 samples.

Results

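The ATG genes of the budding yeast Saccharomyces cerevisiae were taken as every gene on the array whose symbol in GEO's platform annotation is ATG followed by a number. There were 36 such genes among 5379 named genes, with 1 probe each, and 31 of the 36 had a value on at least 1 array. Cells of strain S288C in exponential growth in YPD, a rich medium, at 25 °C were held in 1.8 mM formaldehyde for 2 h. Control cells were grown on for the same 2 h with nothing added. Poly(A) RNA of treated cells (Cy5) and of control cells (Cy3) was hybridised together to each of 3 arrays, 1 for each independent biological sample, and each array was read at high and at low laser power.

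Macroautophagy wraps cytoplasm or organelles in a double membrane and delivers them to the vacuole, the lytic compartment of yeast, for breakdown and reuse. The Atg1 kinase complex starts the process, vesicles carrying the membrane protein Atg9 supply membrane, a lipid kinase marks the site with phosphatidylinositol 3-phosphate, and a pair of ubiquitin-like systems attach Atg8 to the growing membrane. Receptor proteins tie chosen cargo to Atg8 and to the scaffold Atg11. The related cytoplasm-to-vacuole targeting (Cvt) pathway runs in well-fed cells and carries vacuolar hydrolases with much of the same machinery.

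Every value is a log2 ratio of treated over control, for which 1 means a doubling. That direction is likely and not settled: channel 1 holds the treated sample on every array, per the labels, and no source used here states how the ratio was formed. Turned round, it would swap every higher and lower. No dyes were swapped, so a dye effect on a single gene and the effect of formaldehyde cannot be told apart. The high and low power values of an array were averaged, the array was the replicate, and a gene was tested when it had a value on all 3 arrays. Means were tested against 0 with limma and Benjamini-Hochberg adjustment over all 2133 genes tested, and a gene was called at adjusted p under 0.05.

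Measurement was uneven, on the ATG genes and on the array as a whole. Of the 36 ATG genes, 14 had a value on all 3 arrays, 5 on 2 arrays, 12 on 1 array and 5 on none. The share with a value on all 3 arrays was 38.9% of ATG genes and 39.7% of all named genes. Array 1 measured 16 ATG genes, array 2 measured 23 and array 3 measured 25. The 5 with no value were ATG11, ATG17, ATG31, ATG26 and ATG38. Spot intensities were not used here, so the counts below describe the members that could be measured and not all 36.

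Of the 14 tested ATG genes, 12 were higher in treated cells, 1 was lower and 1 did not pass (limma, adjusted p under 0.05). Over all 2133 tested genes, 37.2% were called higher and 25.3% lower. The 14 ATG genes had a median log2 ratio of 1.02, and the 2133 tested genes had a median of 0.18. On single arrays the median of the 14 was 0.94, 1.12 and 1.11 on arrays 1, 2 and 3, and that of all tested genes was 0.05, 0.21 and 0.31. When array 1, 2 or 3 was left out, 10, 9 and 9 of the same 14 were called higher. Over all genes tested in those fits, 960 of 2945, 746 of 2482 and 608 of 2146 were called higher. By size, 7 genes rose at least 2-fold (22.0% of all tested genes did so): ATG41, ATG40, ATG8, ATG33, ATG1, ATG42 and ATG22, by 2.22-fold to 13.0-fold. The other 5, ATG36, ATG5, ATG3, ATG19 and ATG34, rose by 1.38-fold to 1.86-fold. The single gene called lower was ATG27, whose call was lost without each array in turn, and ATG7 did not pass.

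**Figure D1:**
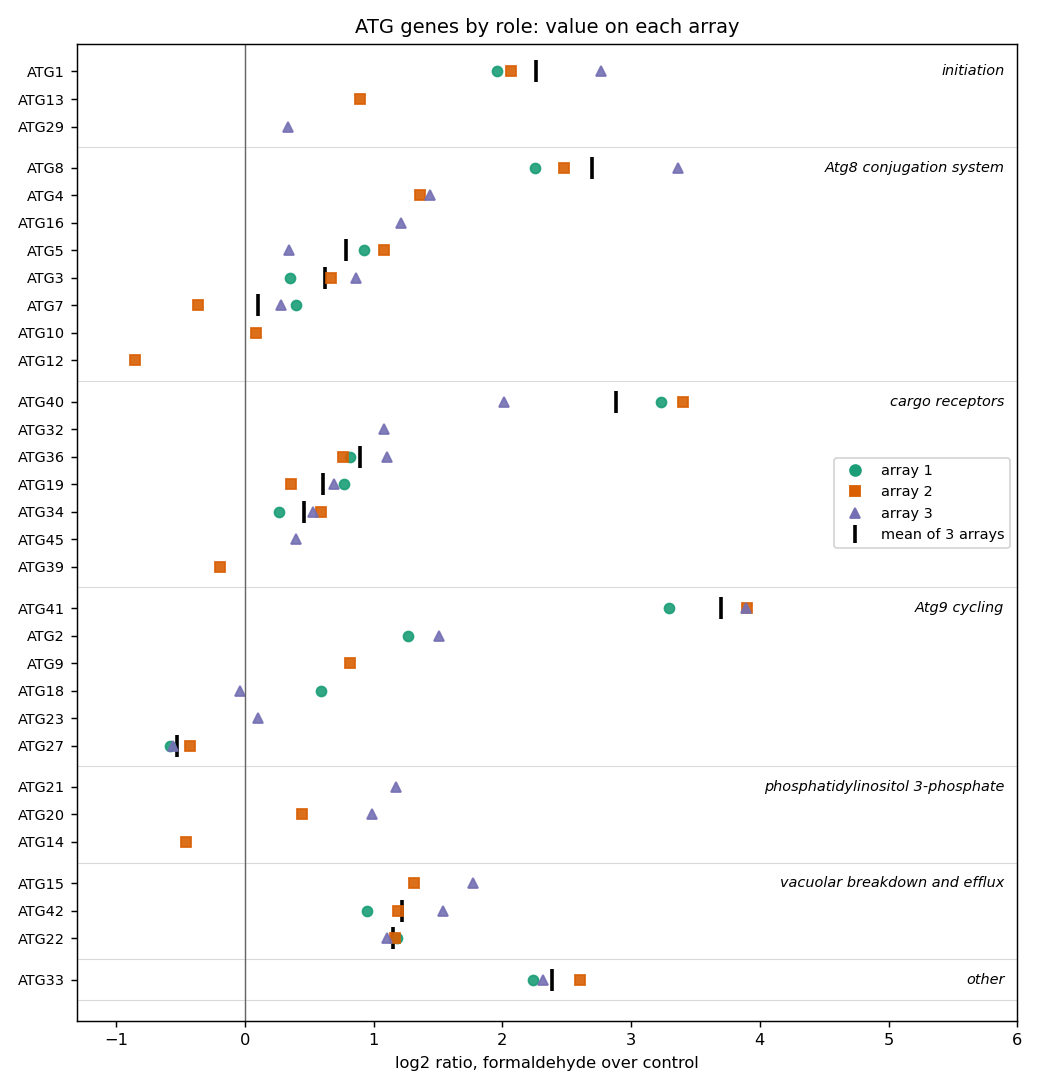
Log2 ratio of formaldehyde-treated over control cells (x axis) for the 31 ATG genes with a value, in rows grouped by role; circles, squares and triangles are arrays 1, 2 and 3, and the black bar is the mean of genes with a value on all 3. ATG41, ATG40, ATG8, ATG33 and ATG1 lie near or above 2 on every array that measured them, and ATG27 lies below 0 on all 3.

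**Figure D2:**
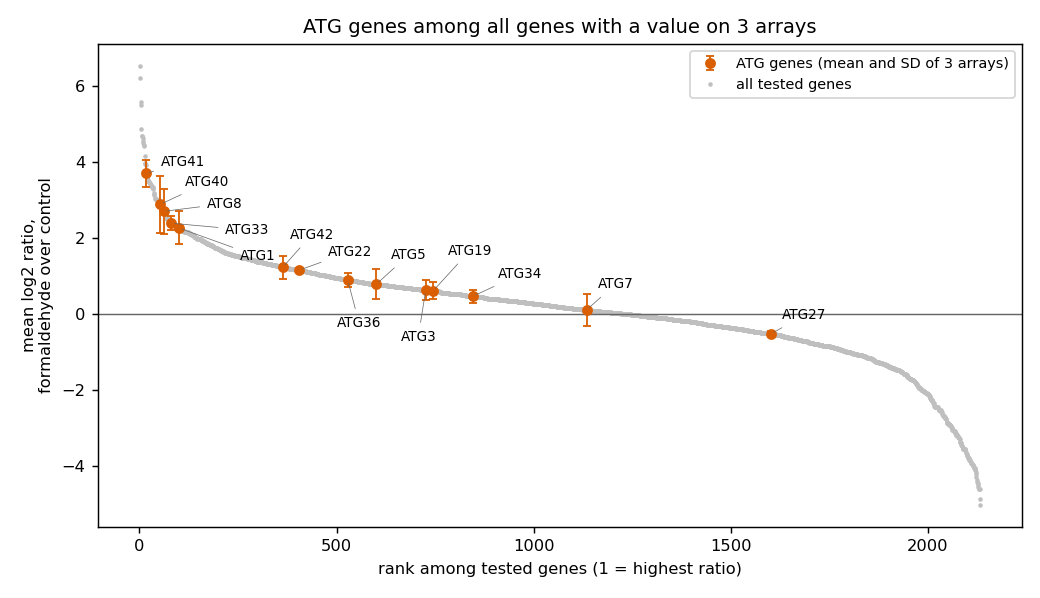
Mean log2 ratio (y axis) of the 2133 tested genes against their rank (x axis), with the 14 tested ATG genes in orange and their SD over 3 arrays as bars. ATG41 ranked 17, ATG40 ranked 52, ATG8 ranked 61, ATG33 ranked 80 and ATG1 ranked 99, while ATG7 ranked 1134 and ATG27 ranked 1602.

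Initiation was represented by the kinase gene and little else. ATG1 (YGL180W), the protein kinase that starts autophagosome formation, had log2 ratios of 1.96, 2.07 and 2.76 on arrays 1, 2 and 3. All were far above 0, and array 3 was the highest. Its mean was 2.26 ± 0.44 (SD, n = 3), or 4.80-fold higher in treated cells, with limma adjusted p = 0.000109. ATG13 (YPR185W), the regulatory subunit of the kinase, had a value of 0.90 on array 2 alone. ATG29 (YPL166W), part of the scaffold that gathers the other factors under starvation, had 0.34 on array 3 alone. The partners of Atg29 in that scaffold, ATG17 and ATG31, and the scaffold gene of selective autophagy, ATG11, had no value. On the arrays they shared, ATG1 read 2.07 beside 0.90 for ATG13 and 2.76 beside 0.34 for ATG29, without a test. Over the 3 measured genes of 6 the median was 0.90.

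The Atg8 conjugation genes had values from a large increase in the modifier itself to a value below 0 for its counterpart ATG12 on a single array. ATG8 (YBL078C) encodes the ubiquitin-like protein that is joined to the lipid phosphatidylethanolamine and builds the membrane. It had log2 ratios of 2.26, 2.48 and 3.36 on arrays 1, 2 and 3, the highest again on array 3. The mean of 2.70 ± 0.58 (SD, n = 3) was a 6.49-fold increase (limma adjusted p = 9.55e-05). ATG4 (YNL223W), the protease that trims Atg8 before conjugation and frees it afterwards, had 1.36 and 1.44 on arrays 2 and 3 and no value on array 1. In the limma fit that took genes with a value on at least 2 arrays, ATG4 rose 2.64-fold (adjusted p = 0.00104).

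The enzymes of the cascade that were tested had smaller ratios than ATG8 on every array. ATG3 (YNR007C), the E2-like enzyme that passes Atg8 to the lipid, had 0.35, 0.67 and 0.86 on arrays 1, 2 and 3, with a mean of 0.63 ± 0.26 (limma adjusted p = 0.0187). ATG5 (YPL149W), which is joined to Atg12 and with it helps Atg3, had 0.92, 1.08 and 0.34, with a mean of 0.78 ± 0.39 (limma adjusted p = 0.0122). All of these lay above 0, though array 3 was the lowest for ATG5 and the highest for ATG3. ATG7 (YHR171W), the E1-like enzyme that activates both Atg8 and Atg12, had 0.40, -0.37 and 0.28, so array 2 had the opposite sign to the other two. Its mean of 0.10 ± 0.41 did not pass (limma adjusted p = 0.687).

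Beyond ATG5 and ATG7, members on the Atg12 side were seen on single arrays. ATG16 (YMR159C), whose product holds Atg12 and Atg5 together, had 1.21 on array 3. ATG10 (YLL042C), the E2-like enzyme for Atg12, had 0.09 on array 2. ATG12 (YBR217W), the second ubiquitin-like modifier, had -0.86 on array 2, the lowest value of any ATG gene measured. ATG8 and ATG12, the 2 modifiers, thus had values of opposite sign on array 2, 2.48 and -0.86, without a test. All 8 conjugation genes had a value somewhere, 7 of them above 0, and their median was 0.70.

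The cargo receptors were also spread over a wide range. ATG40 (YOR152C), the receptor for the breakdown of the endoplasmic reticulum, had log2 ratios of 3.23, 3.40 and 2.01 on arrays 1, 2 and 3. Array 3 was the lowest here, and its own scans read 1.72 at high and 2.31 at low power. The mean was 2.88 ± 0.76 (SD, n = 3), or 7.37-fold (limma adjusted p = 0.000154). ATG36 (YJL185C), the receptor for peroxisomes, had 0.82, 0.76 and 1.11, with a mean of 0.90 ± 0.19 and limma adjusted p = 0.00315.

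ATG19 (YOL082W), the receptor of the Cvt pathway, and ATG34 (YOL083W), which carries α-mannosidase to the vacuole under starvation, are neighbours on chromosome XV in the RefSeq gene order and relatives of each other. ATG19 had 0.77, 0.36 and 0.69 on arrays 1, 2 and 3, with a mean of 0.61 ± 0.22 (limma adjusted p = 0.0188). ATG34 had 0.26, 0.59 and 0.53, with a mean of 0.46 ± 0.17 (limma adjusted p = 0.0464). Both changes were small and all values lay above 0. Whether cDNA of one bound the probe of the other was not tested. The call of ATG34 held under 2 of 13 other settings, single probes and robust eBayes, and was lost under the other 11. Without the stricter thresholds or an array left out, its limma adjusted p in the settings that lost it was 0.0536 to 0.0836.

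Receptors measured on 1 array gave values of either sign. ATG32 (YIL146C), the receptor for mitochondria, had 1.08 on array 3. ATG45 (YIL024C), the receptor for glycogen, had 0.40 on array 3, and ATG39 (YLR312C), the receptor for the nuclear envelope, had -0.19 on array 2. The 2 receptors of the endoplasmic reticulum and nuclear membrane, ATG40 and ATG39, thus read 3.40 and -0.19 on the one array that measured both. All 7 receptors had a value, 6 were above 0, and their median was 0.61. The 4 that were tested were all called higher, beside 37.2% of all tested genes. ATG19 and ATG34 lost the call without at least 1 array.

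Genes of Atg9 cycling held both the largest increase and the only decrease called among the 14 tested ATG genes. ATG41 (YPL250C), also known as ICY2, whose product interacts with Atg9, had log2 ratios of 3.29, 3.90 and 3.90 on arrays 1, 2 and 3. Array 1 was the lowest, and the mean of 3.70 ± 0.35 (SD, n = 3) was a 13.0-fold increase (limma adjusted p = 1.13e-05). ATG27 (YJL178C), a membrane protein that travels with Atg9 vesicles, had -0.58, -0.43 and -0.56. Its mean of -0.52 ± 0.08 was below 0 on every array by more than the spread between them, a 1.44-fold decrease (limma adjusted p = 0.0249). The call was lost whichever array was left out. On each array ATG41 and ATG27 thus lay on opposite sides of 0.

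The rest of the Atg9 group was measured in part. ATG2 (YNL242W), whose product moves lipid into the growing membrane and acts in the return of Atg9, had 1.27 on array 1 and 1.51 on array 3. It rose 2.62-fold in the limma fit of genes with at least 2 arrays (adjusted p = 0.00117). ATG18 (YFR021W), the partner of Atg2 that binds phosphatidylinositol 3-phosphate, had 0.59 on array 1 and -0.04 on array 3 and did not pass there (adjusted p = 0.433). On these arrays ATG2 was thus above ATG18 both times. ATG9 (YDL149W) itself had 0.82 on array 2, and ATG23 (YLR431C), a peripheral protein that moves with Atg9, had 0.10 on array 3. Of 6 genes measured, 5 were above 0, and the median was 0.55. Array medians were 0.93, 0.82 and 0.10, over 4, 3 and 5 genes, which were not the same genes.

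Genes that act after the vesicle reaches the vacuole were higher wherever they were measured. ATG22 (YCL038C), a vacuolar membrane protein that lets amino acids out, had 1.18, 1.16 and 1.10 on arrays 1, 2 and 3. Its mean was 1.15 ± 0.04, the smallest spread of the 14 tested ATG genes, or 2.22-fold (limma adjusted p = 0.000745). ATG42 (YBR139W), a vacuolar carboxypeptidase, had 0.95, 1.19 and 1.54, with a mean of 1.22 ± 0.30 (limma adjusted p = 0.00109). ATG15 (YCR068W), the lipase that opens the delivered membrane, had 1.31 on array 2 and 1.77 on array 3, and rose 2.91-fold in the fit of genes with at least 2 arrays (adjusted p = 0.000692). The 3 members had a median of 1.22.

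Members that bind or make phosphatidylinositol 3-phosphate could not be tested on 3 arrays. ATG20 (YDL113C), a sorting nexin, had 0.44 on array 2 and 0.99 on array 3 (adjusted p = 0.0485 in the limma fit of genes with at least 2 arrays). ATG21 (YPL100W), which helps place the Atg8 machinery, had 1.18 on array 3. ATG14 (YBR128C), the autophagy subunit of the lipid kinase, had -0.46 on array 2. Of these, ATG20 alone could be tested at all. Outside the groups above, ATG33 (YLR356W), a protein of the mitochondrial outer membrane needed for the breakdown of mitochondria, had 2.24, 2.60 and 2.32 on arrays 1, 2 and 3. Its mean was 2.39 ± 0.19, or 5.23-fold (limma adjusted p = 3.50e-05). On array 3, the 1 array with both, ATG33 read 2.32 and the receptor gene ATG32 1.08, without a test. ATG26, a sterol glucosyltransferase gene, had no value.

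Set side by side, the 4 main roles had medians between 0.55 and 0.90 over their measured members, and wider ranges within each. The median log2 ratio was 0.90 for initiation (3 genes), 0.70 for the Atg8 conjugation system (8 genes), 0.61 for cargo receptors (7 genes) and 0.55 for Atg9 cycling (6 genes). Within roles, values ran from 0.34 to 2.26, from -0.86 to 2.70, from -0.19 to 2.88 and from -0.52 to 3.70. The medians and their order moved when an array was left out. Without arrays 1, 2 and 3 they were 0.90, 1.35 and 1.46 for initiation and 0.74, 0.92 and 0.51 for conjugation. They were 0.56, 0.85 and 0.56 for receptors and 0.46, 0.28 and 0.82 for Atg9 cycling, which lay lowest without array 1 or 2 and above conjugation and receptors without array 3. The ranges overlapped throughout, and with different genes on different arrays no difference between roles was tested.

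Ratios also differed with the number of arrays behind them. The 5 ATG genes with 2 arrays had a median of 1.39, and the 12 with 1 array a median of 0.37. Over all named genes these medians were -0.09 with 2 arrays and -0.20 with 1 array. Of the 31 ATG genes with any value, 27 had a mean above 0, where 50.2% of all measured genes did. All 5 genes with 2 arrays and 9 of the 12 genes with 1 array were above 0. With genes on at least 2 arrays, limma called 15 of 19 ATG genes higher and 1 lower, where 30.3% of all 3307 genes so tested were higher. The 4 genes added to the higher calls were ATG15, ATG4, ATG2 and ATG20, and ATG34 was lost.

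The scans of an array could be compared for 7 ATG genes that were also read at low power, in 13 pairs of scans. The median absolute difference between high and low power was 0.14 on the log2 scale for them and 0.21 for all genes. The largest among ATG genes was that of ATG40 on array 3, 0.59. ATG22 and ATG42 were read at both powers on all 3 arrays and kept their calls with low power scans alone (2 of 2 ATG genes testable). The median SD over arrays was 0.28 for the 14 ATG genes and 0.29 for all tested genes.

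Leaving out single arrays separated the larger changes from the smaller ones. ATG1, ATG8, ATG22, ATG33, ATG36, ATG40, ATG41 and ATG42 were called higher without each of the 3 arrays. ATG3, ATG5, ATG19 and ATG34 lost the call without at least 1. ATG5 was 0.63 without array 2 (limma adjusted p = 0.0858). ATG3 was 0.61 without array 2 (adjusted p = 0.101 by limma) and 0.51 without array 3 (adjusted p = 0.1004). ATG19 was 0.53 without array 1 (adjusted p = 0.0975 by limma) and 0.56 without array 3 (0.0868). ATG34 lay between 0.40 and 0.56, with limma adjusted p from 0.0773 to 0.297. ATG27 was not called at log2 ratios of -0.50, -0.57 and -0.51 without arrays 1, 2 and 3 (limma adjusted p from 0.0904 to 0.121). Its direction was downward each time.

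**Figure D3:**
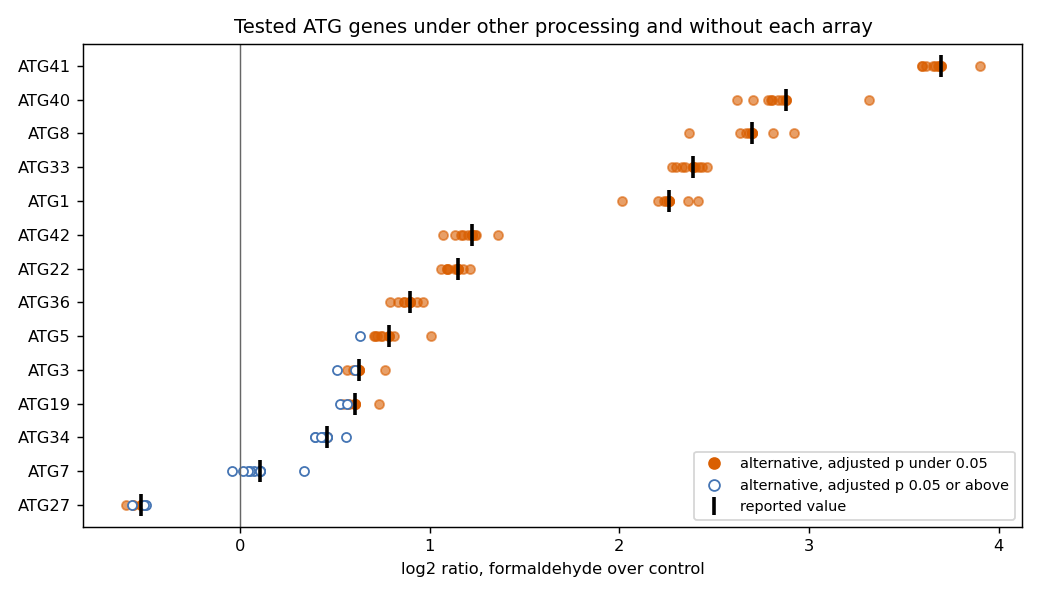
Log2 ratio of formaldehyde-treated over control cells (x axis) of the 14 tested ATG genes (rows), with the reported value as a black bar and the value under each other way of processing, or without 1 array, as a circle (stricter thresholds are not drawn), filled where limma adjusted p was under 0.05. The 7 genes from ATG41 down to ATG22 and ATG36 keep filled circles throughout, ATG5, ATG3, ATG19, ATG34 and ATG27 have both kinds, and ATG7 has open circles around 0.

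Other genes of the pathway, which have no ATG symbol, were read from 5 lists covering 65 genes, of which 60 were matched to a named probe and 21 had a value on all 3 arrays. Of the 21, 12 were higher, 4 lower and 5 did not pass, with a median log2 ratio of 0.55, beside 37.2% higher, 25.3% lower and a median of 0.18 over all tested genes. The single lists below hold 2 to 7 tested genes each, too few to set their shares against those of all genes. VPS30, the lipid kinase subunit also called ATG6, had no value. SNX4, the sorting nexin also called ATG24, had 1.23 and 1.94 on arrays 2 and 3, and its adjusted p was 0.000784 in the limma fit of genes with at least 2 arrays. In the list that holds SNX4, that of the lipid kinase and membrane source, other genes with 2 arrays were below 0. ARL1 had -1.22 and -1.43 on arrays 2 and 3 (adjusted p = 0.00160 in the same limma fit). YPT6 had -1.16 and -0.28 on arrays 1 and 3.

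Cargo of the Cvt pathway was higher in treated cells in all 3 tested genes of 4, beside 37.2% of all tested genes. APE1 (YKL103C), aminopeptidase I, the main cargo that Atg19 binds, had log2 ratios of 2.76, 3.33 and 3.00 on arrays 1, 2 and 3. The mean of 3.03 ± 0.29 (8.15-fold, limma adjusted p = 1.66e-05) stood beside 0.61 ± 0.22 for ATG19, and on each array APE1 had the larger value. LAP3, a cysteine aminopeptidase, had a mean of 0.87 ± 0.13 (limma adjusted p = 0.00314). APE4, an aspartyl aminopeptidase, had 0.62 ± 0.15 (limma adjusted p = 0.0148), and was not called when array 2 was left out (adjusted p = 0.121) or when array 3 was (adjusted p = 0.0726). AMS1, the α-mannosidase gene, had -0.32 and 0.82 on arrays 2 and 3 and did not pass in the limma fit of genes with at least 2 arrays (adjusted p = 0.531).

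Genes upstream and downstream of the core machinery were mixed. In the list of the lipid kinase and membrane source, 2 of 4 tested genes were higher and 1 lower, beside 37.2% and 25.3% of all tested genes. SNX41, a sorting nexin that pairs with Snx4, rose by 1.84 ± 0.37 (limma adjusted p = 0.000222). The Rab GTPase gene YPT1 was at 0.52 ± 0.34 (limma adjusted p = 0.0474) and VAC8, a vacuolar membrane protein of the Cvt pathway, at -0.52 ± 0.30 (limma adjusted p = 0.0438). YPT1 lost its call without array 1 or 3 (limma adjusted p = 0.161 and 0.206). VAC8 lost it without each array in turn (limma adjusted p = 0.0612 to 0.363).

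In the list of vesicle fusion with the vacuole, 3 of 5 were higher and none lower (37.2% and 25.3% over all tested genes), and 2 of the 3 calls did not hold when arrays were left out. SEC17, which recycles the fusion proteins, rose by 1.40 ± 0.15 (limma adjusted p = 0.000367). The SNARE genes VTI1 (0.55 ± 0.39) and YKT6 (0.47 ± 0.14) were called at limma adjusted p = 0.0473 and 0.0396. YKT6 lost its call whichever array was left out (adjusted p = 0.0865 to 0.217), and VTI1 did not pass when array 1 was left out (adjusted p = 0.0810) or when array 2 was (adjusted p = 0.366). With scans centred without ribosomal protein genes, neither passed by limma (adjusted p = 0.0888 for VTI1 and 0.0645 for YKT6), nor did YPT1 (0.0743).

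Of 7 tested genes of TORC1, protein kinase A and Snf1 signalling, which set autophagy to the nutrient supply, 4 were higher and 2 lower, beside 37.2% and 25.3% of all tested genes. NPR1, a kinase held in check by TORC1, rose by 1.54 ± 0.65 (limma adjusted p = 0.00180). LST8, a TORC1 subunit, rose by 1.00 ± 0.29 (limma adjusted p = 0.00275), and NPR2, of the complex that inhibits TORC1, by 0.87 ± 0.15 (limma adjusted p = 0.00324). These 3 kept their calls without each array. The remaining calls, outside the rule for named genes, were BCY1, the protein kinase A inhibitor subunit, at 0.79 ± 0.16, the phosphatase gene PPH21 at -0.53 ± 0.06, and SNF4, the activating subunit of Snf1, at -0.53 ± 0.33 (limma adjusted p = 0.00524, 0.0229 and 0.0452). Of the signalling genes with a value on 2 arrays, means were -1.10 for RAS2, -0.96 for SEH1, -0.88 for TPK3, -0.74 for KOG1 and -0.41 for SIT4. They were -0.08 for SCH9, 0.10 for TAP42 and 0.81 for TPK2. Among 9 regulators of ATG transcription, 2 had a value on all 3 arrays. GCN4 (YEL009C), the activator of amino acid synthesis genes, whose protein level is set largely at translation, had -3.77, -4.03 and -3.45 on arrays 1, 2 and 3. Its mean of -3.75 ± 0.29 was far below 0 on every array (limma adjusted p = 1.02e-05). RPD3, the histone deacetylase that acts with the repressor Ume6, was at 0.02 ± 0.14 and did not pass (limma adjusted p = 0.941). UME6 itself had no value. GAT1, a GATA activator of genes for poor nitrogen sources, had 1.74 and 1.56 on arrays 1 and 3, the opposite sign to GCN4, and rose 3.14-fold in the limma fit of genes with at least 2 arrays (adjusted p = 0.000351).

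**Figure D4:**
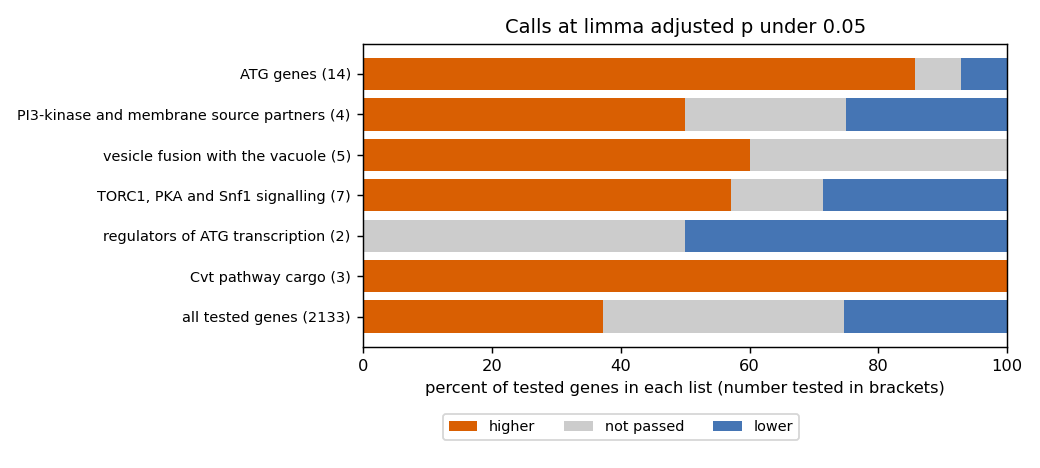
Percent of tested genes (x axis) that were higher, did not pass or were lower in formaldehyde-treated cells, for the ATG genes, the 5 other lists of pathway genes and all 2133 tested genes, with the number tested in brackets. The ATG bar holds 12 higher, 1 not passed and 1 lower of 14, beside 37.2% higher and 25.3% lower over all tested genes; the other lists rest on 2 to 7 genes each.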

How the data were processed

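Values were deposited as log2 ratios, 1 for each probe in each scan, which the authors had normalised by LOWESS over spots without a flag, per the labels' descriptions. No source used here names the image software. All 6 scans of 3 arrays were used. Of 6912 probes, 5446 had 1 gene symbol, none had several and the rest had none. All 5379 genes were found in the RefSeq table of S288C (R64), which gave systematic names and neighbours. The build behind the probes is unknown here and coordinates were left out. Probes were averaged within a gene, then scans within an array.

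Means over arrays were tested with lmFit and eBayes of limma 3.58.1 under R 4.3.3, with 2 residual degrees of freedom and 4.84 from the prior. Errors are SDs over arrays, whose number limits the precision. On simulated ratios for 2133 genes the test recovered 71.0% of changes of 1 and 99.0% of changes of 2 on the log2 scale. Of its calls on those ratios, 6.59% were false. Whether these rates hold for the measured ratios, of which 37.2% were called higher and 25.3% lower, was not tested.

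The ATG genes, roles and other lists were chosen with earlier results of these data known. ATG45 was added to the receptors when the platform table was read. Every ATG gene is named, and of each other list, up to 3 called genes of largest change are. Outside this rule, SNX4, VPS30, AMS1, GAT1, BCY1, PPH21, SNF4, RPD3 and UME6 were chosen after their values were seen. ARL1, YPT6 and the signalling genes with a value on 2 arrays were also named outside this rule, with their values known. Alternatives were single scan powers, scans as blocked columns, centring, scaling, other filters and thresholds, single probes, robust eBayes and leaving out each array. No DNA or protein sequences were used here.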

Additional observations from a re-analysis of the deposited data

How the results depend on the processing

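There were 142 recomputed values of the 14 tested ATG genes, other than those without 1 array. Of these, 125 kept direction and call and 17 lost the call. None changed sign, but single probes, robust eBayes, the 2-array filter and the stricter thresholds left these ratios as they were. Only the call could change under those settings. The same held for ATG genes without a low power value, such as ATG8 and ATG1, with high power scans alone and with blocked scans. ATG36 lost its call only at the 2-fold threshold, and ATG5, ATG3, ATG19 and ATG27 only under the stricter thresholds. ATG34 lost its call under the stricter thresholds and under other processing. With low power scans alone 560 genes could be tested, 225 higher and 178 lower, among them 2 ATG genes, 2 higher and 0 lower. The median was 1.17 for these ATG genes. The value of 1.26 for conjugation was ATG5 on array 2 alone, and that of 2.31 for receptors was ATG40 on array 3 alone. The 1.58 for Atg9 cycling rested on ATG41 and ATG27 alone. At least 2-fold changes were called upward for 469 genes and downward for 334 of 2133 tested, with 7 ATG genes higher and 0 lower of 14. At limma adjusted p under 0.01, 8 of these 14 ATG genes were higher and 0 lower. Over all 2133 tested genes, 576 were higher and 404 lower at that threshold. With at least 2 arrays, 816 of all genes were lower. Centring scans on genes other than ribosomal protein genes, chosen after seeing the data, moved the median of all tested genes to 0.098. It left 11 of 14 ATG genes higher and 1 lower, beside 732 higher and 586 lower of all 2133 tested genes. Leaving out 1 array leaves 1 residual degree of freedom and leans on the pooled variance. ATG genes called higher then ranged from 9 to 13 and those called lower were 0 each time, among 14 to 17 tested. Genes called higher over all tested genes ranged from 608 of 2146 to 960 of 2945. Those called lower ranged from 464 of 2146 to 688 of 2945. Medians then ranged from 1.04 to 1.13 (ATG genes), 0.90 to 1.46 (initiation), 0.51 to 0.92 (conjugation), 0.56 to 0.85 (receptors) and 0.28 to 0.82 (Atg9 cycling). ATG7 changed sign without array 1 (-0.043), with a range of -0.043 to 0.34. The causes of these changes were not tested, beyond fewer genes or arrays. The test of ratios within arrays is itself paired, since treated and control cells share each array. Signal over background was not used here, so which ratios rest on dim spots is unknown.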
